A study of Mus musculus with 16 samples.

Results

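The 10 genes Hspa1a, Hspa1b, Hsph1, Hspa8, Hsp90aa1, Hspb1, Dnajb1, Dnaja1, Hspd1 and Hspe1 encode heat shock proteins of the cytosol and of the mitochondria. They were chosen by name, out of 54193 genes for which counts were summed, and all 10 passed the filter on low counts that left 14838 genes for testing. RNA-seq was run on mouse brain microvascular endothelial cells (mBMEC) from animals of 8 to 10 weeks that carried Pdcd10 fl/fl and Cdh5 (PAC)-CreERT2. Pdcd10, also called Ccm3, is 1 of the genes whose loss causes cerebral cavernous malformations, and the Cdh5 promoter confines the inducible Cre to endothelial cells. All cultures carried the floxed alleles and the Cre, had been selected with puromycin and were used at passage 2. KO cells had received 4-hydroxytamoxifen (4-OHT) and WT cells had not, so 4-OHT and the genotype cannot be told apart. Untreated cells gave 3 WT and 3 KO libraries. Propranolol, a beta-adrenergic blocker, was given at 10 µM for 24 h in 2 libraries of WT cells (WT+P) and 3 of KO cells (KO+P), and rapamycin, an inhibitor of mTORC1, at 100 nM for 24 h in 2 of WT cells (WT+R) and 3 of KO cells (KO+R). The comparisons ask what the loss of Ccm3 and each drug did to these mRNAs.

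Heat shock proteins are molecular chaperones that bind unfolded or partly folded proteins. In the cytosol, HSP40 proteins hand clients to HSP70, which holds and releases them in a cycle of ATP use driven by exchange factors such as HSP110, and HSP90 takes over part of these clients for the last steps of folding. Small heat shock proteins hold unfolding proteins without ATP, and in mitochondria the HSP60 ring with its HSP10 lid folds imported proteins. Under stress the transcription factor HSF1 binds heat shock elements, arrays of inverted GAA units, and raises the inducible members of the family.

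Libraries held 18.83 to 26.2 M counts. Endothelial markers summed to between 6883 and 14395 CPM (counts for every M counts of the library, TMM-adjusted) with none of the 10 markers at 0 in any library, including Cdh5 at 2452 to 5186 CPM and Pecam1 at 1364 to 3566 CPM. Gfap, the defining astrocyte marker, had a median of 0 CPM, and the astrocyte list summed to at most 7.75 CPM. Mural cell markers summed to between 31.5 and 631 CPM, with Acta2 at 22.0 to 618 CPM, fibroblast markers to between 4.79 and 202 CPM, microglia and macrophage markers to between 1.88 and 26.1 CPM, oligodendrocyte markers to between 23.2 and 58.6 CPM and neuron markers to between 1.92 and 29.4 CPM. The targeted gene Pdcd10 stood at 11.5, 31.2 and 47.0 CPM in WT replicates 1 to 3 and at 9.72, 11.0 and 9.73 CPM in KO replicates 1 to 3. The library labelled WT replicate 1 therefore had Pdcd10 near the KO level, and the main comparisons with WT are also given without it. Fewer cells of a type and less RNA per cell cannot be told apart in such bulk samples. The labels call the replicates biological, and libraries with the same replicate number resembled each other across groups, so a culture below means the libraries that share a number. Pdcd10 stood at 60.8 CPM in WT+P replicate 1 and 52.0 CPM in WT+R replicate 1. Ratios within culture 1 that use the library labelled WT replicate 1 thus rest on a library unlike those treated partners in Pdcd10.

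Per length, the 10 mRNAs covered a wide range of levels in these cells. In TPM (a share of all transcripts corrected for length, mean ± SD over the 16 libraries), Hspb1 stood at 3132 ± 890, Hspa8 at 1242 ± 118, Hsp90aa1 at 242 ± 50.6, Hspe1 at 194 ± 31.7 and Dnaja1 at 182 ± 19.9. Below them, Hsph1 stood at 98.6 ± 25.6, Hspd1 at 95.1 ± 17.7, Dnajb1 at 43.3 ± 5.84, Hspa1b at 15.1 ± 15.8 and Hspa1a at 9.34 ± 13.0 TPM. Hspe1 and Dnaja1 differed by less than the spread between libraries, as did Hsph1 and Hspd1. Hspa1a and Hspa1b varied together, and Hspa1a held 23.2 to 45.9% of the summed CPM of the pair in the 16 libraries. The ratio of the highest to the lowest library was 34.6 for Hspa1a and 18.9 for Hspa1b, against 1.43 for Dnaja1 and 1.49 for Hspa8. Hspa1a and Hspa1b were thus the scarcest and the most variable of the 10.

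**Figure D1:**
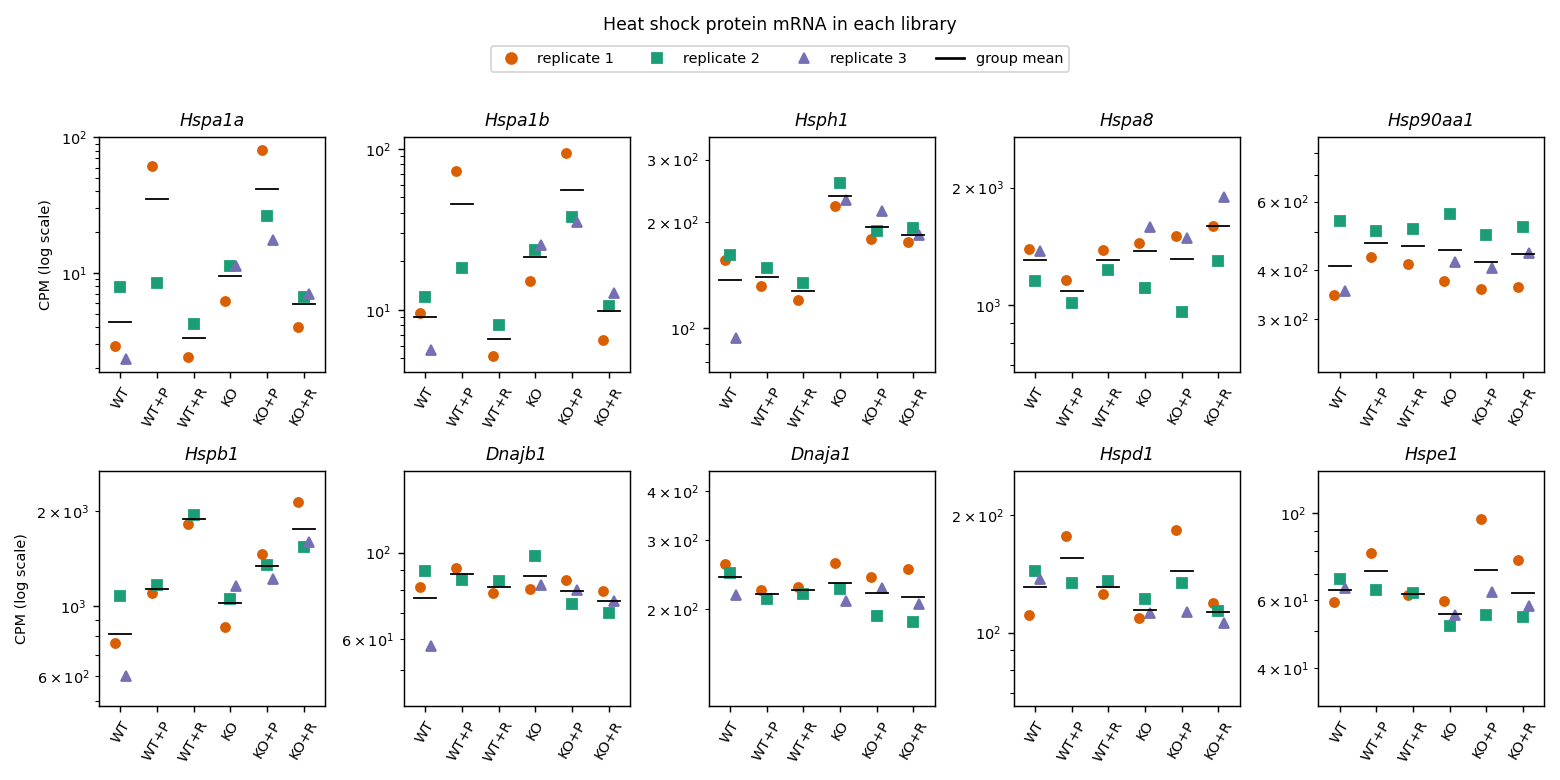
Level of each of the 10 mRNAs in CPM (y axis, log scale) in the 6 groups (x axis), with 1 symbol for each library, shaped and coloured by replicate number, and a bar at the group mean. Hspa1a and Hspa1b are highest in replicate 1 of both propranolol groups, Hspb1 is highest in the rapamycin groups, Hsph1 is higher in KO than in WT, and replicate 2 is highest for Hsp90aa1 and lowest for Hspa8 in every group.

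Hspa1a and Hspa1b encode the same kind of stress-inducible HSP70 and lie next to each other on chromosome 17, at chr17:35188166-35191132 and chr17:35175412-35178214 on the minus strand (GRCm39). The 250 bases before the start of each gene, read from the GRCm39 genome, are shown because the pair moved together. They are the same at 247 positions and differ at 3, and the capitals mark a motif GAANNTTC, the inverted pair of GAA units of a heat shock element.

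Hspa1a, chr17:35191133-35191382, minus strand: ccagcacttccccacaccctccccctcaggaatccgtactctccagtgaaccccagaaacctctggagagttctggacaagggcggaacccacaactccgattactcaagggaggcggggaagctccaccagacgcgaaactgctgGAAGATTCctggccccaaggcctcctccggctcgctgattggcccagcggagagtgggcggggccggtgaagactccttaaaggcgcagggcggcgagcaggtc
Hspa1b, chr17:35178215-35178464, minus strand: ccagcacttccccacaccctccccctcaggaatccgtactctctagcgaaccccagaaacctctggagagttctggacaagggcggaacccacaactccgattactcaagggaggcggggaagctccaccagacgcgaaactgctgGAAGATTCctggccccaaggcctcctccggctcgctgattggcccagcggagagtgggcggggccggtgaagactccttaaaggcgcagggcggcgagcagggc

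The match ends 97 bases before the start in both genes. Of 14837 promoters of the same length, 5.31% held GAANNTTC, 6.60% held TTCNNGAA and 11.2% held either. Each motif reads the same on both strands, and the pair can overlap in longer arrays. In all, 6 of the 10 genes held either motif in this window, counting Hspd1 and Hspe1, which share 1 array. No match was found for Hspa8, Hsp90aa1, Dnajb1 or Dnaja1 in windows of the same length. The windows of Hsph1, Hspa8, Dnajb1, Dnaja1, Hspd1 and Hspe1 lie wholly or partly within exons of other annotated transcripts. A match is a description of the letters and not evidence of binding.

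Untreated, the inducible HSP70 mRNAs were near the floor of the family in both genotypes. Hspa1b measured 9.57, 12.0 and 5.62 CPM in WT replicates 1 to 3 and 15.0, 23.7 and 25.2 CPM in KO replicates 1 to 3, and the 2 groups did not overlap. Hspa1a measured 2.90, 7.92 and 2.34 CPM in WT and 6.24, 11.2 and 11.3 CPM in KO, and its groups overlapped. Each KO library was higher than the WT library of its culture for both genes. By edgeR's quasi-likelihood test neither was called, with a log2 fold change of 1.23 ± 0.52 (SE, adjusted p = 0.745) for Hspa1b and 1.12 ± 0.72 (adjusted p = 0.978) for Hspa1a. Without the library labelled WT replicate 1 the log2 fold change was 1.27 for Hspa1b (edgeR adjusted p = 0.903) and 0.89 for Hspa1a (adjusted p = 1.00).

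With propranolol, both mRNAs were highest in replicate 1 of each genotype. Hspa1a measured 61.3 and 8.52 CPM in WT+P replicates 1 and 2 and 80.6, 26.2 and 17.6 CPM in KO+P replicates 1 to 3. For Hspa1b the values were 72.9 and 18.1 CPM in WT+P and 94.9, 37.6 and 35.0 CPM in KO+P. Every propranolol library was higher than the untreated library of its culture, in 5 of 5 pairs for each gene. The size of that difference depended on the culture, from 21.1-fold and 12.9-fold for Hspa1a in replicate 1 of WT and KO to 1.08-fold in WT replicate 2 and 1.55-fold in KO replicate 3. The 21.1-fold value is relative to the library labelled WT replicate 1, which had Pdcd10 near the KO level.

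The propranolol contrasts had large estimates and were not called. In KO+P vs KO, the log2 fold change was 2.11 ± 0.72 for Hspa1a (edgeR adjusted p = 0.325) and 1.39 ± 0.51 for Hspa1b (adjusted p = 0.338), and without KO+P replicate 1 these were 1.19 and 0.77. In WT+P vs WT, they were 2.98 ± 0.79 (edgeR adjusted p = 0.308) and 2.33 ± 0.57 (adjusted p = 0.275). Without the library labelled WT replicate 1 the WT estimates were 2.76 and 2.36, and they rested on WT+P replicate 1: without it they were 0.95 and 1.00, and without WT+P replicate 2 both genes were called, at 3.80 (edgeR adjusted p = 0.0222) and 3.01 (adjusted p = 0.0176). Replicate 1 of the propranolol groups also had the lowest sums of endothelial markers of all libraries, 6883 CPM in WT+P and 7375 CPM in KO+P, and the highest sums of neuron markers, 21.1 and 29.4 CPM. Only 2 of the 6 neuron markers passed the filter on low counts, and they moved in opposite directions. Their log2 fold changes were −0.38 and 1.14 in WT+P vs WT and −0.56 and 0.97 in KO+P vs KO. All 10 endothelial markers had negative log2 fold changes with propranolol in both genotypes, with a median of −0.61 in WT+P vs WT and −0.41 in KO+P vs KO, and 0 were called. The part of these markers in the Hspa1a and Hspa1b values was not tested.

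Rapamycin left the pair at or below the untreated level. Hspa1b measured 5.15 and 8.03 CPM in WT+R and 6.46, 10.6 and 12.7 CPM in KO+R, and Hspa1a 2.42 and 4.21 CPM in WT+R and 4.02, 6.64 and 6.99 CPM in KO+R. Each rapamycin library was below the untreated library of its culture, in 5 of 5 pairs for each gene. In KO+R vs KO the groups of Hspa1b did not overlap, with a log2 fold change of −1.10 ± 0.52 that was not called (edgeR adjusted p = 0.406).

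Hspa1a and Hspa1b were the members called between the drugs in KO cells. In KO+R vs KO+P, Hspa1b was lower by a log2 fold change of −2.49 ± 0.53 (edgeR adjusted p = 0.0210) and Hspa1a by −2.81 ± 0.74 (adjusted p = 0.0490), with no overlap between the 3 KO+R and the 3 KO+P libraries for either gene. Those were 2 of the 10 members called, against 4.08% of all genes tested in that comparison. Without KO+P replicate 1 the log2 fold changes were −1.87 (edgeR adjusted p = 0.0925) and −1.89 (adjusted p = 0.216). Leaving out KO+R replicate 1, 2 or 3 also ended both calls at folds close to the full fit, −2.24, −2.52 and −2.70 for Hspa1b and −2.58, −2.89 and −2.95 for Hspa1a, and Hspa1a was not called without KO+P replicate 2 (−3.06). With both genes joined into 1 feature, the log2 fold change was −2.62 (edgeR adjusted p = 0.0286). In WT+R vs WT+P it was −2.79 ± 0.67 for Hspa1b, with an edgeR adjusted p of 0.0610 and, with the replicate block, 0.0460, and −3.39 ± 0.94 for Hspa1a (adjusted p = 0.101). Without WT+P replicate 1 these were −1.46 (edgeR adjusted p = 0.492) and −1.36 (adjusted p = 0.683).

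Reads that fit both genes make their split uncertain. Of the stretches of 150 bases in the Hspa1a transcript, 46.0% also occur in Hspa1b, Gm20481, Hspa1l or Gm10501, and 19.01% of its exonic bases overlap Gm20481 on the other strand, which held at most 3.39 counts. For Hspa1b 40.5% of such stretches are shared. Hspa1l held at most 64.1 counts and Gm10501 at most 33.2. Set against the count of the same library, Hspa1l reached 70.9% of Hspa1a and 32.9% of Hspa1b. Gm10501 reached 39.2% and 14.3%. The summed level does not depend on the split within the pair, though it can depend on reads shared with those other genes. It was 12.5, 19.9 and 7.96 CPM in WT, 134 and 26.7 CPM in WT+P and 7.56 and 12.2 CPM in WT+R. In KO cells it was 21.3, 34.9 and 36.6 CPM untreated, 176, 63.8 and 52.6 CPM with propranolol and 10.5, 17.2 and 19.6 CPM with rapamycin.

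**Figure D2:**
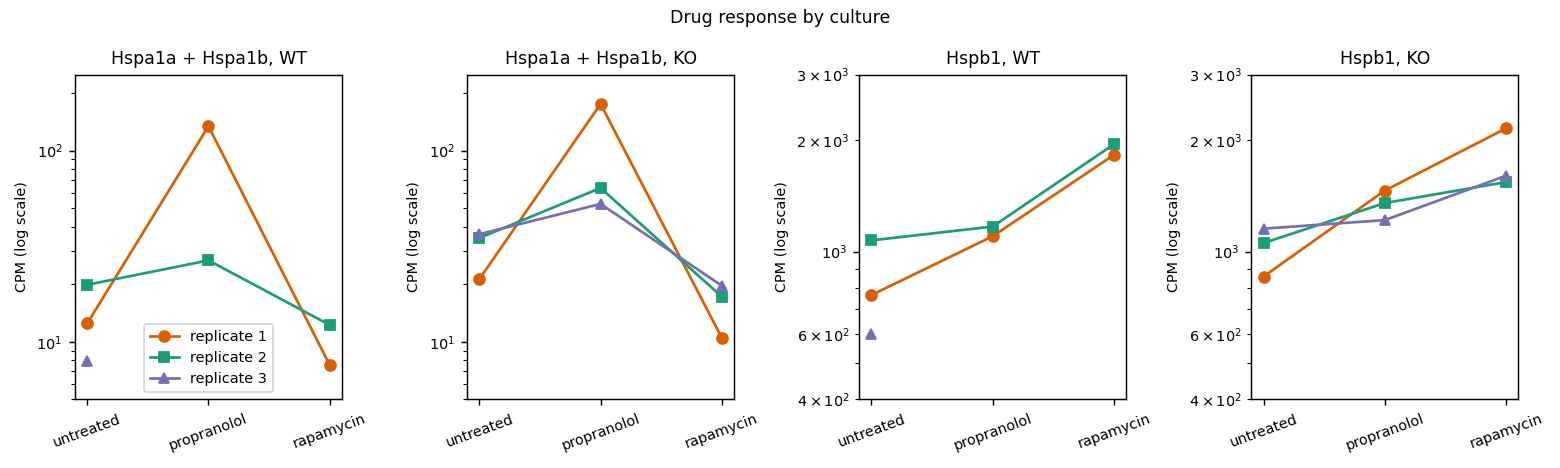
Summed Hspa1a and Hspa1b (the 2 panels at the left) and Hspb1 (the 2 at the right) in WT and KO cells, in CPM on log axes, with lines joining libraries of the same replicate number and genotype across the untreated, propranolol and rapamycin conditions. The pair peaks with propranolol along all 5 lines, most in replicate 1 (134 CPM in WT and 176 CPM in KO), and Hspb1 is highest with rapamycin along all 5.

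Hsph1 encodes an HSP110 protein that drives nucleotide exchange on HSP70 (chr5:149537636-149560156, minus strand). It is shown with the element found before the start of its main transcript, 28 to 21 bases upstream, where the capitals mark TTCNNGAA.

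Hsph1, chr5:149559822-149559839, minus strand: aatctTTCTCGAAggctc

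Hsph1 was higher in KO than in WT cells in each culture. It measured 156, 161 and 93.7 CPM in WT replicates 1 to 3 and 221, 258 and 231 CPM in KO replicates 1 to 3, a KO to WT ratio of 1.42, 1.60 and 2.46 within cultures. The groups did not overlap, and the log2 fold change was 0.79 ± 0.17 (fold 1.73). edgeR's quasi-likelihood test gave an unadjusted p of 0.00048 and an adjusted p of 0.333, and the replicate block lowered the adjusted p to 0.0657, so Hsph1 was not called by either fit. Leaving out the library labelled WT replicate 1 gave 0.89 (edgeR adjusted p = 0.275), and leaving it out together with fitting the replicate block gave 0.94 and a call (adjusted p = 0.0479). The study lists Hsph1 and Hspa1b among the genes it called in KO vs WT, a choice made on these same samples and so no independent evidence.

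Both drugs left Hsph1 lower than in untreated KO cells without reaching the WT level. It measured 179, 188 and 214 CPM in KO+P and 175, 192 and 184 CPM in KO+R. All 6 of those libraries were below the 3 KO libraries and above the 3 WT libraries. The log2 fold change was −0.29 ± 0.17 in KO+P vs KO (edgeR adjusted p = 0.479) and −0.36 ± 0.17 in KO+R vs KO (adjusted p = 0.400), and neither was called. In WT cells it measured 131 and 148 CPM with propranolol and 120 and 134 CPM with rapamycin, within the range of untreated WT. Within cultures the ratio to the untreated library was 0.84 and 0.92 in WT+P and 0.77 and 0.83 in WT+R. It was 0.81, 0.73 and 0.93 in KO+P and 0.79, 0.75 and 0.80 in KO+R. WT replicate 3, the lowest WT library, has no treated partner. The log2 fold change was 0.03 ± 0.19 in WT+P vs WT (edgeR adjusted p = 0.979). In WT+R vs WT it was −0.11 ± 0.19 (adjusted p = 0.894), and neither was called.

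Hspa8 encodes HSC70, the constitutive HSP70 of the cytosol (chr9:40711630-40731039, plus strand). It was high in every library and changed little with genotype or drug. It measured 1389, 1154 and 1378 CPM in WT and 1446, 1105 and 1586 CPM in KO, 1158 and 1013 CPM in WT+P and 1501, 959 and 1486 CPM in KO+P, and 1382 and 1233 CPM in WT+R and 1598, 1295 and 1887 CPM in KO+R. Replicate 2 was the lowest library in all 6 groups. The replicate number accounted for 63.2% of the sum of squares of log2 CPM and the group for 36.3%, against medians of 23.4% and 44.7% over all genes tested. Such shares, here and below, were computed separately. WT+P and WT+R have no replicate 3, so the shares can overlap and are no partition. No comparison called Hspa8 (edgeR adjusted p from 0.481 to 1.00 over the 7 comparisons of 2 groups).

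The Hspa8 counts also depended on a look-alike gene. Of the stretches of 150 bases in the main Hspa8 transcript, 56.7% also occur in other genes, and Gm15459, a look-alike named after its values were seen, held between 3954 and 16095 counts, 13.7 to 51.4% of the Hspa8 count of the same library. Gm15459 was at 485 to 551 CPM in the replicate 1 libraries, 437 to 660 CPM in replicate 2 and 204 to 292 CPM in replicate 3. Summed with Gm15459, Hspa8 measured 1917, 1666 and 1594 CPM in WT and 1953, 1673 and 1831 CPM in KO. Replicate 2 was the lowest in 5 of the 6 groups for that sum. Joining the genes left every comparison uncalled, with log2 fold changes from −0.12 in WT+P vs WT to 0.30 in KO+R vs KO+P (edgeR adjusted p = 0.868 and 0.256).

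The share of the Hspa8 transcripts followed the culture as well. Hspa8-201 carried 53.3 to 64.1% of the Hspa8 TPM in the 4 replicate 3 libraries and 11.3 to 22.1% in the 12 others. Hspa8-202 carried 26.8 to 40.8% in replicate 3 and 49.0 to 70.7% in the others, and Hspa8-209, which has no annotated coding sequence, 1.58 to 14.1% against 18.0 to 30.8%. Hspa8-201 and Hspa8-202 start and end at the same bases, chr9:40712280-40716496, and differ at 1 coding exon, chr9:40714035-40714187 in Hspa8-201 and chr9:40714092-40714187 in Hspa8-202, which shortens the coding sequence by 57 bases. The cause of the split was not tested.

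**Figure D3:**
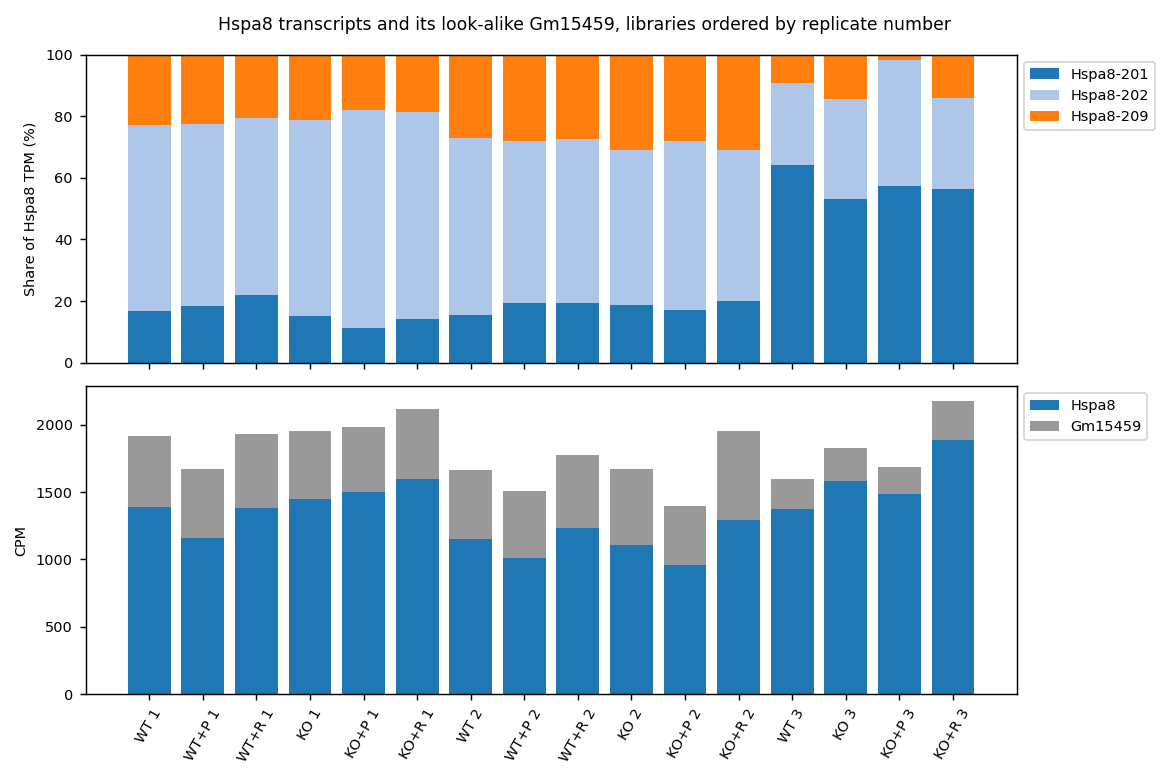
Share of the Hspa8 TPM (%) carried by its 3 main transcripts (upper panel) and Hspa8 and Gm15459 in CPM, stacked (lower panel), in the 16 libraries ordered by replicate number. The 4 replicate 3 libraries at the right have the most Hspa8-201 (53.3 to 64.1%) and the least Gm15459 (204 to 292 CPM).

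The 2 HSP40 proteins, Dnajb1 and Dnaja1, are J-domain proteins that load clients onto HSP70 and start its ATP use. Dnajb1 (chr8:84334811-84339820, plus strand), an inducible member, measured 81.5, 89.7 and 57.7 CPM in WT, 80.6, 98.3 and 82.8 CPM in KO, 85.3, 73.9 and 80.1 CPM in KO+P and 79.7, 69.9 and 75.3 CPM in KO+R. WT+P and WT+R libraries lay between 78.9 and 91.3 CPM. Its groups overlapped in KO vs WT, and the log2 fold change was 0.19 ± 0.14 (edgeR adjusted p = 0.996). Dnaja1 (chr4:40722056-40737149, plus strand) stayed between 185 and 263 CPM over all libraries and was highest in replicate 1 of all 6 groups, with 45.4% of its sum of squares following the replicate number. Its largest estimate was −0.15 ± 0.15 in WT+P vs WT (edgeR adjusted p = 0.793). Of the Dnaja1 exonic bases, 84.2% overlap Smu1 and Gm6297 on the other strand or Mir207, and the unstranded libraries cannot tell such reads apart.

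Hsp90aa1 encodes the inducible cytosolic HSP90 (chr12:110656842-110669166, minus strand) and followed the culture more than any condition. It measured 345, 535 and 353 CPM in WT replicates 1 to 3, 374, 557 and 419 CPM in KO, 359, 494 and 406 CPM in KO+P and 363, 516 and 442 CPM in KO+R. The values were 433 and 505 CPM in WT+P and 415 and 509 CPM in WT+R. Replicate 2 was the highest and replicate 1 the lowest library in each of the 6 groups. The replicate number accounted for 80.4% of its sum of squares and the group for 10.6%, against medians of 23.4% and 44.7% over all genes tested. No comparison called it, and the log2 fold changes lay between −0.10 in KO+P vs KO (edgeR adjusted p = 0.863) and 0.19 in WT+P vs WT (adjusted p = 0.843).

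Hspb1 encodes HSP27 (HSP25 in mice), a small heat shock protein that holds unfolding proteins and binds actin (chr5:135916760-135918417, plus strand). The 250 bases before its start are shown because it was the member called with rapamycin. The capitals mark 2 matches of GAANNTTC, which end 97 and 77 bases upstream.

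Hspb1, chr5:135916510-135916759, plus strand: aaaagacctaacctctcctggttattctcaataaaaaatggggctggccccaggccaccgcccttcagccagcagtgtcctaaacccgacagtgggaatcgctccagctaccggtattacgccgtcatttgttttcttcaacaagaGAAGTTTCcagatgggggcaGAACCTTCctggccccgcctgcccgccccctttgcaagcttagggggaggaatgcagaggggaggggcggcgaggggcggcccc

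Hspb1 was higher with rapamycin in both genotypes. It measured 764, 1072 and 601 CPM in WT replicates 1 to 3 and 1823 and 1947 CPM in WT+R, with a ratio of 2.39 in culture 1 and 1.82 in culture 2. In KO cells it measured 857, 1055 and 1153 CPM untreated and 2149, 1540 and 1601 CPM with rapamycin, with ratios of 2.51, 1.46 and 1.39. The treated and untreated groups did not overlap in either genotype.

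Hspb1 was called in WT+R vs WT and depended on the replicate block in KO+R vs KO. In WT+R vs WT the log2 fold change was 1.21 ± 0.22 (edgeR adjusted p = 0.0194), and 1 of the 10 members was called there against 1.40% of all genes tested. That call was lost in 4 of the 5 fits that left out 1 library, with log2 fold changes of 1.17 without WT replicate 1 (adjusted p = 0.0718), 1.04 without WT replicate 3 (0.0619), 1.26 without WT+R replicate 1 (0.159) and 1.17 without WT+R replicate 2 (0.0910). In KO+R vs KO it was 0.79 ± 0.20, not called (edgeR adjusted p = 0.0856), and with the replicate block 0.78, called (adjusted p = 0.0367). With the block, 1 of the 10 members was called in that comparison against 4.98% of all genes, and without it 0 of 10 against 1.51%. The difference between the genotypes in the rapamycin response, −0.43 ± 0.30 on the log2 scale, was not called (edgeR adjusted p = 1.00).

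Propranolol libraries lay between the untreated and the rapamycin libraries for Hspb1. It measured 1100 and 1169 CPM in WT+P and 1461, 1352 and 1216 CPM in KO+P, above the untreated libraries in both genotypes without overlap. The log2 fold changes were 0.48 ± 0.23 in WT+P vs WT (edgeR adjusted p = 0.511) and 0.39 ± 0.20 in KO+P vs KO (adjusted p = 0.433), and neither was called. In KO vs WT it was 0.33 ± 0.20 with overlapping groups (adjusted p = 0.972), and 0.28 without the library labelled WT replicate 1. Between the drugs the groups of Hspb1 did not overlap in either genotype, with log2 fold changes of 0.39 ± 0.20 in KO+R vs KO+P (edgeR adjusted p = 0.298) and 0.73 ± 0.25 in WT+R vs WT+P (adjusted p = 0.183), and neither was called. The sum of the mural cell markers was 40.1 to 180 CPM in WT, 175 to 323 CPM in WT+P and 565 to 631 CPM in WT+R. In KO cells it was 31.5 to 60.4 CPM untreated, 44.7 to 86.7 CPM in KO+P and 64.6 to 171 CPM in KO+R. These markers did not move as a set, and Acta2 alone reached 618 CPM. Of the 6 tested, 3 had positive log2 fold changes in WT+R vs WT (median −0.07, range −2.89 to 2.74) and 5 in KO+R vs KO (median 0.22). With propranolol, 2 were positive in WT+P vs WT and 1 in KO+P vs KO. The part of the mural cell markers in the Hspb1 result was not tested. The pseudogene Hsp25-ps1, which shares stretches with Hspb1, held at most 33.2 counts.

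Hspd1, the HSP60 ring of mitochondria, and Hspe1, its HSP10 lid, lie on chromosome 1 (chr1:55116989-55171038, minus strand, and chr1:55127260-55130476, plus strand). The annotated span of Hspd1 covers Hspe1, but their main transcripts stand head to head, with starts at chr1:55127183 and chr1:55127291. Between these starts lies 1 shared array, shown on the strand of each gene with the inverted units in capitals.

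Hspd1, chr1:55127213-55127240, minus strand: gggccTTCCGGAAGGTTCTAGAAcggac
Hspe1, chr1:55127213-55127240, plus strand: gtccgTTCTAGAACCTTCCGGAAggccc

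The array holds at least 3 alternating units in a row, the motif GAANNTTC followed by NNGAA or the complement of that, which 0.377% of the 14837 promoters held. Like the inducible HSP70 pair, both mRNAs were highest in propranolol replicate 1. Hspd1 measured 177 and 134 CPM in WT+P and 184, 134 and 113 CPM in KO+P, against 111, 144 and 137 CPM in WT and 109, 122 and 112 CPM in KO. Hspe1 measured 78.8 and 63.4 CPM in WT+P and 96.8, 54.9 and 62.7 CPM in KO+P, against 59.3, 67.7 and 64.2 CPM in WT and 59.4, 51.3 and 54.9 CPM in KO. The ratio to the untreated library of the same culture was 1.59 and 1.68 for Hspd1 in replicate 1 of WT and KO, and 0.93 to 1.10 in the other cultures. The log2 fold change in KO+P vs KO was 0.33 ± 0.17 for Hspd1 (edgeR adjusted p = 0.425) and 0.37 ± 0.19 for Hspe1 (adjusted p = 0.426), and neither was called. With rapamycin Hspd1 lay between 106 and 136 CPM and Hspe1 between 54.2 and 75.7 CPM.

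Counted by comparison, few members stood apart. In KO vs WT, 0 of the 10 were called against 0.00674% of all genes tested (0 of 10 against 0.182% with the replicate block), and 2 had groups that did not overlap, against 13.2% of all genes. The targeted gene Pdcd10 was itself not called there, although its groups did not overlap. Its log2 fold change was −1.56 ± 0.40 (edgeR adjusted p = 0.420, and 0.119 with the block). The absence of a call in KO vs WT is thus no evidence that an mRNA was unchanged. In KO+P vs KO 0 of 10 were called (0.00674% of all genes) and 4 did not overlap (18.7%), and in WT+P vs WT 0 were called (0.00674%) and 3 did not overlap (21.2%). With rapamycin, 4 did not overlap in KO+R vs KO (24.1% of all genes) and 1 in WT+R vs WT (28.6%), and with the block 1 was called in WT+R vs WT (4.56%). Between the drugs, 3 did not overlap in KO+R vs KO+P (25.5%), and with the block 2 were called (9.62%). In WT+R vs WT+P 0 of 10 were called against 1.31%, 1 of 10 with the block against 4.93%, and 6 did not overlap against 37.0%. For 0 calls, the number of members with an unadjusted edgeR p under 0.05 was 2 in KO vs WT (900 of the 14838 genes tested), 2 in KO+P vs KO (1870), 2 in WT+P vs WT (1464), 1 in KO+R vs KO (1862) and 3 in WT+R vs WT+P (2244). Comparisons that share a group, such as KO+P vs KO and KO+R vs KO, share its libraries.

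No member was called for a drug effect that differed between KO and WT cells (the interaction term). Called genes made up 0.0% of all genes for propranolol and 0.0% for rapamycin, and 0 members had an unadjusted edgeR p under 0.05 in either, of 107 and 113 genes in all. For the 2 genes with the largest estimates, Hspa1b and Hspa1a, the propranolol interaction was −0.94 ± 0.76 and −0.87 ± 1.04 on the log2 scale.

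DESeq2 fitted on all libraries called more members than edgeR in 4 of the 7 comparisons of 2 groups and as many in the other 3. It called 1 of 10 in KO vs WT (Hsph1, adjusted p = 0.00942) against 0.228% of the genes it tested, 0 in KO+P vs KO (0.577%), 2 in WT+P vs WT (Hspa1a, adjusted p = 0.0133, and Hspa1b, 0.00909) against 0.430%, and 1 in KO+R vs KO (Hspb1, 0.00609) against 1.72%. It called Hspb1 in WT+R vs WT (3.13e-05) against 2.01%, and Hspa1a and Hspa1b in KO+R vs KO+P (7.68e-04 and 4.13e-05) against 4.13% and in WT+R vs WT+P (0.00188 and 5.34e-04) against 2.33%.

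**Figure D4:**
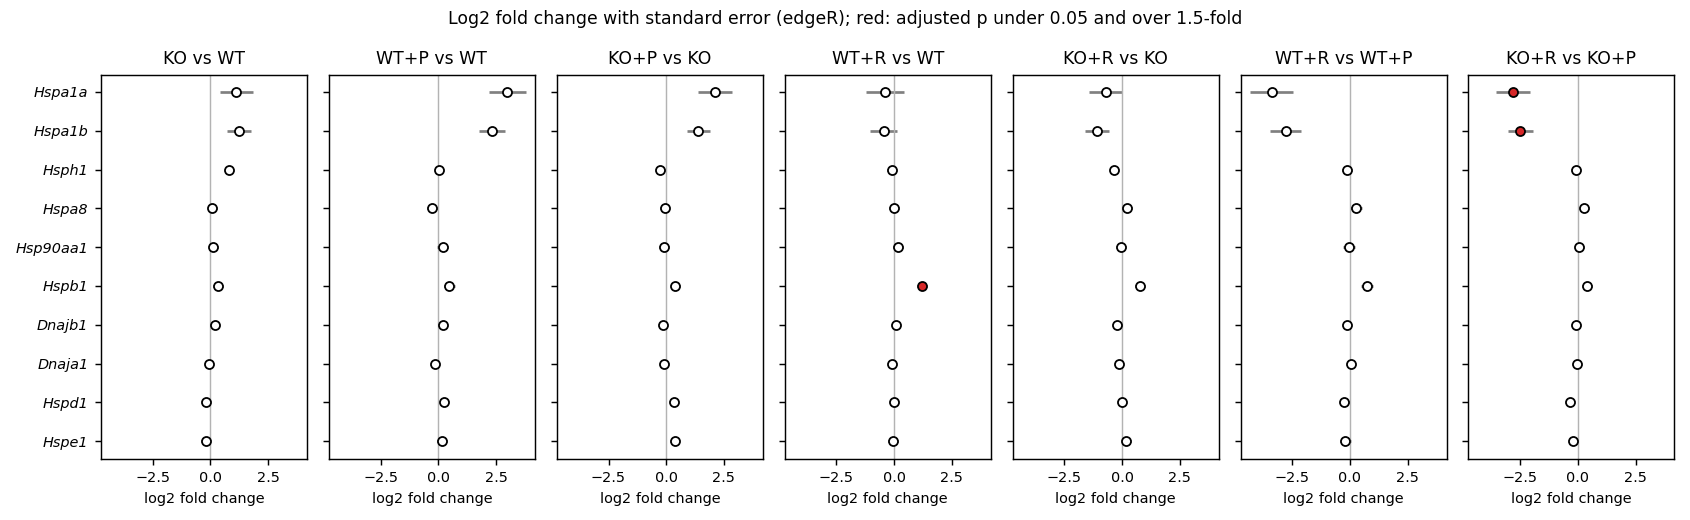
Log2 fold change (x axis) of the 10 genes in the 7 comparisons of 2 groups, from edgeR's quasi-likelihood fit, with bars of 1 standard error, and filled symbols for genes called at an adjusted p under 0.05 and a fold change over 1.5. Filled symbols are Hspb1 in WT+R vs WT (1.21) and Hspa1a and Hspa1b in KO+R vs KO+P (−2.81 and −2.49), and the largest estimates without a call are those of Hspa1a and Hspa1b in WT+R vs WT+P (−3.39 and −2.79) and WT+P vs WT (2.98 and 2.33).

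The wider chaperone network was examined with 91 further genes in 6 lists, of which 86 were tested. These were other cytosolic HSP70, HSP110 and HSP40 chaperones, partner proteins of HSP70 and HSP90, other small heat shock proteins, other mitochondrial chaperones and proteases, subunits of the TRiC/CCT and prefoldin complexes, which fold actin and tubulin, and HSF factors with their regulators. By edgeR's quasi-likelihood test 0 of the 86 were called in any of the 7 comparisons without the block, while between 5 and 14 had an unadjusted p under 0.05, as did between 900 and 3136 of the 14838 genes tested. Their median log2 fold changes lay between −0.06 in KO vs WT and 0.09 in KO+P vs KO, beside −0.01 for all genes in both. The medians of the 10 members were 0.16 in KO vs WT, 0.13 in KO+P vs KO, 0.20 in WT+P vs WT, −0.07 in KO+R vs KO, −0.02 in WT+R vs WT, −0.08 in KO+R vs KO+P and −0.12 in WT+R vs WT+P.

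Among the genes named from these lists, Hspa9, Lonp1 and Dnajb2 were highest in replicate 1 of both propranolol groups. Hspa9, the HSP70 of mitochondria, measured 841 and 274 CPM in WT+P and 669, 409 and 243 CPM in KO+P, against 218 to 271 CPM in WT and 206 to 215 CPM in KO. Its log2 fold change in KO+P vs KO was 1.06 ± 0.36, without overlap and not called (edgeR adjusted p = 0.326). Lonp1, a protease of the mitochondrial matrix, measured 245 and 89.6 CPM in WT+P and 226, 144 and 96.4 CPM in KO+P, and 72.7 to 80.9 CPM in KO+R. With the block, Lonp1 was lower in KO+R than in KO+P (log2 fold change −0.95, edgeR adjusted p = 0.0362). Dnajb2, a neuronally enriched HSP40, measured 81.5 and 39.0 CPM in WT+P against 20.8 to 34.0 CPM in WT, and 86.6, 65.1 and 47.9 CPM in KO+P against 31.6 to 38.9 CPM in KO. It had a log2 fold change of 1.15 ± 0.30 in WT+P vs WT (edgeR adjusted p = 0.290) and 0.91 ± 0.27 in KO+P vs KO (adjusted p = 0.297), and neither was called. Hspa4l, an HSP110 relative, measured 51.2 and 21.8 CPM in WT+P and 31.6, 36.0 and 25.4 CPM in KO+P. It was 1.00 ± 0.30 higher on the log2 scale in WT+P than in WT, with overlapping groups and no call (edgeR adjusted p = 0.371).

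With the replicate block, edgeR called 5 of these 86 genes in KO+R vs KO+P, against 9.62% of all genes, and 1 of 86 in WT+R vs WT+P and in WT+R vs WT, against 4.93% and 4.56%. Lonp1, Hspa4l (−0.70, adjusted p = 0.0489), Dnajb2 (−0.63, adjusted p = 0.0467) and Bag2, an exchange factor of HSP70 (−0.79, adjusted p = 0.00903), were lower, and Ier5, a regulator of HSF1, was higher (0.76, adjusted p = 0.00504). Ier5 was also called higher in WT+R vs WT+P (0.70, adjusted p = 0.0331), and Hspa2, an HSP70 best known from the testis, in WT+R vs WT (0.74, adjusted p = 0.0423). Without the block none of these was called. Dnajb4 was 0.79 ± 0.21 higher in WT+R than in WT (edgeR adjusted p = 0.0919) and Dnajc5 0.43 ± 0.16 lower in WT+R than in WT+P (adjusted p = 0.216).

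Other partners changed by less than 1.5-fold in the comparisons given here. Hsp90ab1, the constitutive cytosolic HSP90, measured 1704, 1632 and 1693 CPM in KO and 2230, 2054 and 2181 CPM in KO+R, without overlap. The log2 fold change was 0.36 ± 0.11 (edgeR adjusted p = 0.149, and 0.0473 with the replicate block) and stayed under the 1.5-fold threshold in either fit. In WT cells Hsp90ab1 measured 1600, 1665 and 1648 CPM untreated and 1854 and 2022 CPM with rapamycin. Bag3, which links HSP70 to small heat shock proteins, measured 92.9, 89.9 and 89.6 CPM in WT and 119, 107 and 137 CPM in KO, with a log2 fold change of 0.41 ± 0.13 (edgeR adjusted p = 0.538). Bag5 was 0.35 ± 0.12 higher in KO than in WT (adjusted p = 0.591). Both had groups without overlap and were not called. Hspb9 stayed under 1.0 CPM in every library, so its log2 fold change of −1.47 ± 0.45 in KO+R vs KO (adjusted p = 0.160) rests on few counts.

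**Figure D5:**
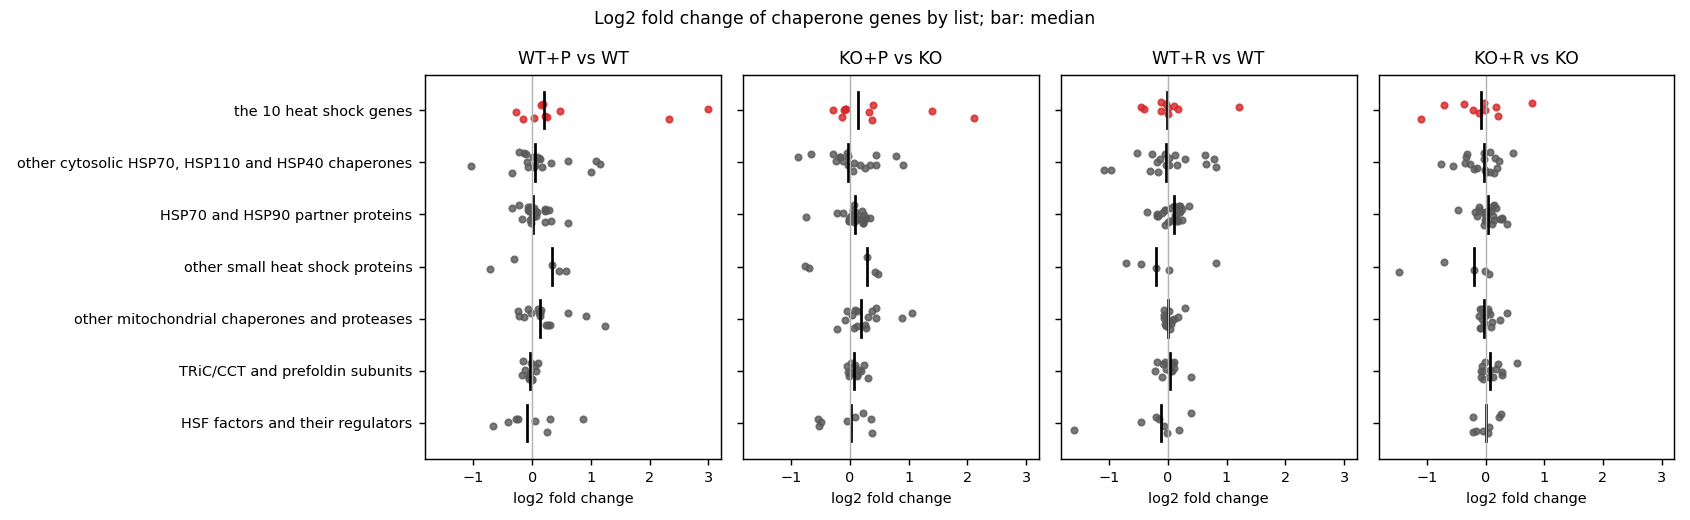
Log2 fold change (x axis) with each drug in each genotype for the 10 heat shock genes (red) and the genes tested of 6 further chaperone lists (grey), with 1 point for each gene and a bar at the list median. Most lists centre near 0, while Hspa1a and Hspa1b stand at 2.98 and 2.33 with propranolol in WT cells and Hspb1 at 1.21 with rapamycin.

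Across the 16 libraries, genes with a pattern near that of Hsph1 included Arhgef15, Capg, Smox and Pacs1, with root mean square differences of centred log2 CPM between 0.137 and 0.173 (median over all genes tested 0.508). The nearest to Hspd1 were Pwp1, Fip1l1, Canx, Ddx56 and Etf1, between 0.0736 and 0.0869 (median 0.408). The libraries of 1 culture are not independent, and these are descriptions of likeness in 16 libraries.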

How the data were processed

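Poly(A) RNA of mBMEC was sequenced as 16 unstranded paired-end libraries. The authors deposited, for each library, 1 table in the format of Salmon listing TPM, expected counts and effective lengths of 140789 transcripts. The submitters' processing notes name Salmon 1.5.2, Trim Galore 0.6.7, HTSeq 0.13.5 and DESeq2 1.34.0 and the GRCm39 build, and the study's methods describe STAR and HTSeq with Ensembl annotation. The transcript index is not given in the sources used here. The deposited expected counts carry no scaling across libraries. TPM values, which the authors scaled by length and library, were used to compare levels between genes, and the authors' effective lengths only as an offset in an alternative.

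Transcripts were assigned to genes with GENCODE vM39 (99.12% of them, with 99.43 to 99.61% of the counts). Counts were summed per gene and rounded to whole numbers. filterByExpr left 14838 of the genes for testing. edgeR 4.0.16 (R 4.3.3) fitted 1 quasi-likelihood model with a mean for each of the 6 groups (10 residual degrees of freedom, TMM factors, biological coefficient of variation 32.3%). A call needed an adjusted p (Benjamini-Hochberg, over all genes tested) under 0.05 and a fold change over 1.5, interactions at the adjusted p alone. CPM are TMM-scaled, and log2 CPM used a prior count of 2. The groups hold 2 or 3 libraries, which limits the precision. The parts of counting error and of spread between cultures in it were not tested. Hspa1a had the fewest counts (53.6 to 1937). p-values set each difference against the spread between these samples. The main fit treats libraries of 1 culture as independent, so its spread includes differences between cultures. With the replicate number as a block the biological coefficient of variation was 19%.

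Same-numbered libraries deviated together: the correlation of deviations from the group means was 0.19 to 0.62 for KO vs WT, 0.31 to 0.58 for KO+P vs KO, 0.41 to 0.62 for KO+R vs KO and 0.33 to 0.55 for KO+R vs KO+P, each with 3 pairs, and 0.49 to 0.69 for the 3 comparisons within WT cells, with 2 pairs each. Over all pairs of groups the correlation was 0.03 to 0.69 (median 0.52) for the same number. For different numbers it was −0.69 to 0.40 (median −0.23), so the ranges overlapped. In groups of 2 the deviations mirror each other, so the 2 pairs of WT+R vs WT+P hold 1 value (0.605). The numbers were taken to pair the libraries, as read from the values and not from a stated design. A fit with the replicate number as a block (8 residual degrees of freedom) is given where it changed a call. Scripts were tested on simulated counts. DESeq2 1.42.0, other scalings, filters, joined features and left-out libraries were alternatives.

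The 10 genes, the other lists and the tests were chosen with earlier results of these data known. Named from the other lists were genes called in a comparison with or without the block, at most 6, filled to 2 with those of the smallest p. The lists were markers of endothelial, mural, fibroblast, astrocyte, microglia, oligodendrocyte and neuron cells and 6 chaperone lists. Gm15459 and the other genes sharing sequence were named after their values were seen. Promoters are the 250 bases before the start of the most abundant transcript in GRCm39. The 5 genes nearest in pattern to Hsph1 and to Hspd1 were also named, except 1 that is not reported here. Columns of values without a sample numbered 0.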

Additional observations from a re-analysis of the deposited data

How the results depend on the processing

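The 3 calls of members in edgeR were not stable: of their 47 values under alternatives, 17 lost the call and 30 kept it. Of the 1541 values of all member results under alternatives, 29 gained a call and 0 called values reversed, while 82 uncalled values changed sign. The counts of members called moved with the tool. In KO vs WT, edgeR called 0, DESeq2 on all libraries 1, DESeq2 on the 2 groups compared 2, DESeq2 with the replicate block 1 and the block without the library labelled WT replicate 1 also 1. In KO+P vs KO the count rose from 0 to 2 with DESeq2 on the groups compared. In KO+R vs KO it rose from 0 to 1 (DESeq2 on all libraries), 2 (groups compared), 1 (DESeq2 with the block) and 1 (edgeR with the block). In WT+P vs WT it rose from 0 to 2 (DESeq2 on all libraries) and 1 (groups compared), and leaving out 1 library gave 0 to 2. In WT+R vs WT it fell from 1 to 0 with edgeR on the groups compared, and leaving out 1 library gave 0 to 1. In KO+R vs KO+P it fell from 2 to 0 with edgeR on the groups compared and 1 with an effective length offset, and leaving out 1 library gave 0 to 2. Joining Hspa1a and Hspa1b there left 1 feature for the pair, which was called, so the count of 1 is no lost call. In WT+R vs WT+P it rose from 0 to 2 (DESeq2 on all libraries), 2 (groups compared), 3 (DESeq2 with the block), 1 (edgeR with the block) and 2 (no filter on low counts), and leaving out 1 library gave 0 to 2. With all 16 libraries, the replicate block added calls of Hspb1 in KO+R vs KO and Hspa1b in WT+R vs WT+P and changed no other member call in edgeR. Without the library labelled WT replicate 1, the block also called Hsph1 in KO vs WT (edgeR adjusted p = 0.0479, against 0.275 without the block). The same held for Hspb1 in WT+R vs WT (0.0482 against 0.0718). The setting joining Hspa8 and Gm15459 was chosen after seeing the data and changed no call. The cause of these differences between tools was not tested. Groups of 2 or 3 libraries limit what could be called, and the fewest counts were those of Hspa1a (53.6 in the lowest library). Depth as a limit was not tested.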
